A study of Homo sapiens with 4 samples.

Results

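The genes described here are the ligands, receptors and SMAD proteins of transforming growth factor beta (TGF-beta), 10 genes selected by symbol from the 58735 genes of the deposited table: TGFB1, TGFB2 and TGFB3, TGFBR1, TGFBR2 and TGFBR3, and SMAD2, SMAD3, SMAD4 and SMAD7. Each symbol matched a single row. The libraries came from HFL1 cells, known as a human fetal lung fibroblast line, with 2 libraries labelled KO, in which calumenin (CALU) was the targeted gene, and 2 libraries labelled WT. The series' design text speaks of both knockout and knockdown of calumenin. The labels do not say how the KO cells were made, whether they are 1 clone, or how they were grown. The comparison asks how levels of these signalling genes differ between KO and WT cells, in a study of calumenin, senescence and fibrosis. Whether 2 libraries of a group stem from different cultures is not stated, and the p-values therefore reflect a spread among libraries that may be only technical.

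TGF-beta ligands are secreted in a latent form held by their propeptide and by latent TGF-beta binding proteins, and are freed by integrins and proteases. The active ligand binds the type II receptor TGFBR2, which phosphorylates the type I receptor TGFBR1, while the coreceptor betaglycan (TGFBR3) presents ligand, TGF-beta 2 in particular. TGFBR1 then phosphorylates SMAD2 and SMAD3, which enter the nucleus with SMAD4, and SMAD7 is an inhibitor induced by the same signal. In lung fibroblasts the pathway is known for driving matrix production and the myofibroblast state.

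Recovered reads numbered 17699349 and 16622382 in the KO libraries and 17715774 and 16173899 in the WT libraries. CALU stood at 6.59 and 5.95 FPKM in KO libraries, against 87.7 and 81.8 FPKM in WT libraries, 13.5-fold lower (limma adjusted p = 0.00154), the direction that the labels imply. Of 14 fibroblast markers, 8 stayed below 1 FPKM in every library, with COL1A2 and POSTN at 0, and the summed level of the list was 586 to 834 FPKM in KO and 1063 to 1438 FPKM in WT. Most of that sum was S100A4, at 449 and 723 FPKM in KO and 933 and 1352 FPKM in WT, while vimentin (VIM) stood at 106 and 84.6 FPKM in KO and 76.5 and 46.8 FPKM in WT. NT5E and TWIST2 were also present. NT5E stood at 13.6 to 18.96 FPKM in KO and 26.3 to 39.6 FPKM in WT. TWIST2 stood at 6.60 to 7.08 FPKM in KO and 10.5 to 11.6 FPKM in WT. Like VIM, COL1A1 and THY1 were higher in KO, against the direction of the sum. COL1A1 stood at 3.04 and 3.16 FPKM in KO and 0.234 and 0.280 FPKM in WT. THY1 stood at 1.38 and 1.79 FPKM in KO and 1.05 and 1.05 FPKM in WT. The 13 epithelial markers summed to 1884 to 2252 FPKM in KO and 995 to 1135 FPKM in WT, mostly from the keratins KRT7, KRT8 and KRT18, while 6 of the 13 stayed below 1 FPKM. CDH1 stood at 39.9 and 36.9 FPKM in KO and 6.79 and 8.55 FPKM in WT. CLDN4 went the other way, at 0.947 and 0.973 FPKM in KO and 4.57 and 5.27 FPKM in WT. The fibroblast list was thus present in part only, beside high keratins in both groups, and the cells are called HFL1 as labelled. The 8 endothelial markers stayed below 1 FPKM in every library and summed to 0.320 to 0.330 FPKM in KO and 0.841 to 0.937 FPKM in WT, with ERG at 0. Of 8 leukocyte markers, 7 stayed below 1 FPKM, with CD3E at 0 and PTPRC at 0.0239 FPKM or less, and the list summed to 6.08 to 6.85 FPKM in KO and 18.7 to 21.1 FPKM in WT, nearly all from CD14. The 6 mural markers summed to 4.08 to 4.44 FPKM in KO and 4.14 to 4.46 FPKM in WT. The 5 mesothelial markers summed to 11.9 to 12.8 FPKM in KO and 31.5 to 33.03 FPKM in WT. Most of the mesothelial sum in WT was CALB2, at 2.35 and 1.94 FPKM in KO and 25.8 and 23.3 FPKM in WT. UPK3B went the other way, at 8.6 and 8.1 FPKM in KO and 4.2 and 5.4 FPKM in WT. The part of these marker differences in the results below was not tested. In bulk RNA, fewer cells of a type and less RNA per cell cannot be told apart.

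Among the TGF-beta genes, TGFBR2 was higher in KO, and TGFB1, TGFBR3 and SMAD3 were lower. Calls were made where the limma p, adjusted by the Benjamini-Hochberg method, was under 0.05, in a fit to log2(FPKM + 1) over all 14100 genes with at least 1 FPKM in at least 2 libraries. Of the 10 genes, 9 passed that filter, with TGFB3 left out, and of those 9, 1 was higher and 3 were lower, 4 called in all. Over all tested genes 23.3% were called, 12.1% higher and 11.1% lower in KO. The KO and WT libraries did not overlap for 7 of the 9, whereas 65.7% of all tested genes showed no overlap. KO lay above WT for 3 of these 9 genes, against 34.4% of all tested genes, and below WT for 4, against 31.3%. Every TGF-beta call except that of SMAD3 was lost without WT replicate 2, and all 4 were lost without WT replicate 1 (limma adjusted p = 0.077 to 0.25 there). Such a fit leaves 1 WT library, which is assumed to vary like the KO pair, and the log2 changes without WT replicate 1 were -0.57 for TGFB1, 0.65 for TGFBR2, -0.82 for TGFBR3 and -0.96 for SMAD3.

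**Figure D1:**
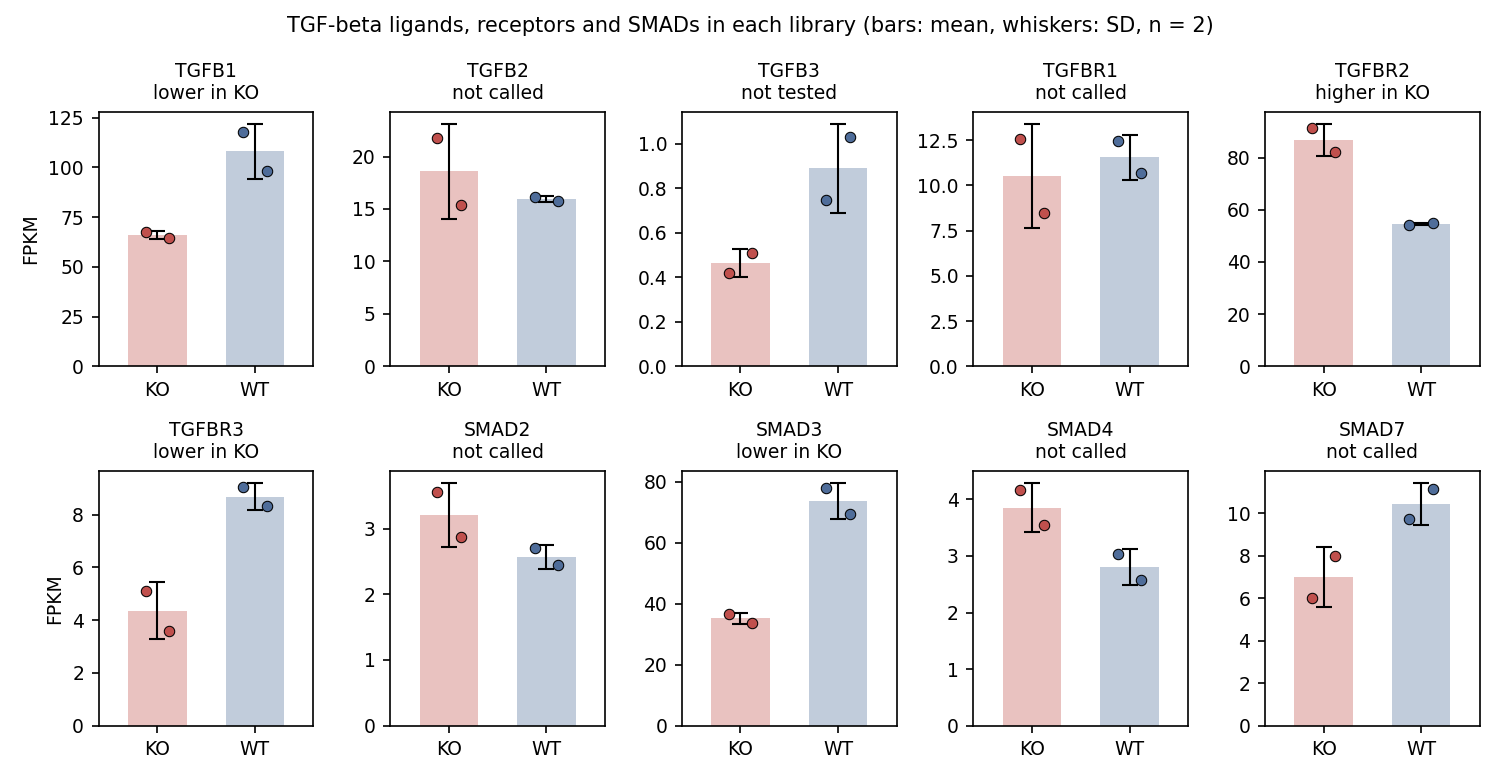
FPKM (vertical axis, from 0, scaled for each gene) of the 10 TGF-beta genes in KO and WT. Points are libraries, bars means and whiskers SD (n = 2 per group). TGFBR2, SMAD2 and SMAD4 lie above WT in both KO libraries, and TGFB1, TGFB3, TGFBR3, SMAD3 and SMAD7 lie below.

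The upstream sequence of the 4 called genes is shown because 3 of them were lower together and TGFBR2 was not. RefSeq promoter windows on GRCh38.p14 were found for 10 of 10 genes, and for each gene the window whose start site lies nearest the annotated 5′ end was taken. Only bases outside annotated exons are printed, 5′ to 3′ on the gene's strand: chr19:41353923-41354168 (minus) for TGFB1, chr3:30606351-30606501 (plus) for TGFBR2, chr1:91886280-91886401 (minus) for TGFBR3 and chr15:67065352-67065601 (plus) for SMAD3. Capitals mark GC boxes, GGGCGG or its reverse complement.
TGFB1: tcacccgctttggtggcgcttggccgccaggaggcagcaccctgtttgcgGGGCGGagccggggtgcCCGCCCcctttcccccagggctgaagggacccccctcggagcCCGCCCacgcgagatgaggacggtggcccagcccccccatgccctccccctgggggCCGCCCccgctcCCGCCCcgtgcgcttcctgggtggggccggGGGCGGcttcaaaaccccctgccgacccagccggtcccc
TGFBR2: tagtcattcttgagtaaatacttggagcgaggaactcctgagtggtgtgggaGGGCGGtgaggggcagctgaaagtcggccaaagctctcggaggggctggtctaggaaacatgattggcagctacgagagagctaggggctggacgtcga
TGFBR3: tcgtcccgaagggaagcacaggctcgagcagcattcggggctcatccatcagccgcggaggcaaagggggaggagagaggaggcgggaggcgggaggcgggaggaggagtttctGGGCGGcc
SMAD3: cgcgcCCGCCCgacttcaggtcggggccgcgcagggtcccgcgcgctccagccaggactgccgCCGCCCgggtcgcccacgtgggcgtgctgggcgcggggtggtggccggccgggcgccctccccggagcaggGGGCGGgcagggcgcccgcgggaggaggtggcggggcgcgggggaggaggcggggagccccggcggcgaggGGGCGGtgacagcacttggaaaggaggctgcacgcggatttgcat
Over the full 250 bases before the start site, GC boxes numbered 6 for TGFB1, 2 for TGFBR2, 2 for TGFBR3 and 4 for SMAD3, and 42.5% of all 34943 windows of that length hold at least 1. The core of the SMAD-binding element, CAGAC on either strand, was searched as well and was in none of these 4 windows, against 38% of all windows. The AP-1 motif TGAGTCA, on either strand, was also in none of the 4, against 4.22% of all windows. Neither motif was therefore there to overlap a GC box. Other SMAD3 windows, further inside the gene, do hold these motifs. CAGAC is in those at chr15:67137771-67138020 and chr15:67166281-67166530, and TGAGTCA is in that at chr15:67125492-67125741. Of the genes not called or not tested, TGFB2, TGFB3, TGFBR1 and SMAD7 hold CAGAC in at least 1 window. Windows of SMAD2 and SMAD4, also not called, hold GC boxes and no CAGAC, as do the 4 windows shown. The TGFB1 start site lies 11 bases upstream of the annotated 5′ end of the gene, and those of TGFBR2, SMAD3 and TGFBR3 lie 99, 1839 and 20184 bases inside the gene. GC content of the full windows was 76.8% for TGFB1, 58.4% for TGFBR2, 73.6% for TGFBR3 and 80.8% for SMAD3. The lowest of these 4 values belonged to the gene that was higher in KO. Windows of SMAD2 and SMAD4, not called but above WT in both KO libraries, held 68.4% to 84.4%. Those of TGFB3 (not tested) and SMAD7 (not called), below WT in both KO libraries, held 48.0% to 58.4%. A link between GC content and the direction of change was not tested.

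Of the ligand genes, TGFB1 was the most abundant and was lower in KO. TGFB1, which encodes the main TGF-beta isoform of most tissues, lies on chromosome 19 from 41301587 to 41353911 on the minus strand of GRCh38. It measured 67.4 and 64.7 FPKM in KO libraries, against 118 and 98.2 FPKM in WT libraries. Both KO libraries lay below both WT libraries, and the WT libraries differed more from each other than the KO libraries did. The mean was 66.02 ± 1.91 FPKM in KO and 108 ± 13.9 FPKM in WT (SD, n = 2 per group), 1.64-fold lower, and the log2 change was -0.70 with an SE of 0.16 (limma adjusted p = 0.0327). That call was lost without any single library, with limma adjusted p = 0.069 and 0.0754 without KO replicates 1 and 2, and 0.25 and 0.106 without WT replicates 1 and 2. With no filter on low values the call was lost as well (limma adjusted p = 0.0926). TGFB1 exons share 215 bases with HNRNPUL1 on the opposite strand, which stood at 108 to 134 FPKM in KO and 64.0 to 83.7 FPKM in WT, and the labels do not say whether counting used strand.

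TGFB2, the isoform that depends most on betaglycan for binding, sits on the plus strand of chromosome 1 between 218346235 and 218444619. Its level was 21.8 and 15.4 FPKM in KO libraries, against 16.1 and 15.7 FPKM in WT libraries. The groups overlapped, since KO replicate 1 was the highest library and KO replicate 2 the lowest. The log2 change was 0.19 (95% interval -0.29 to 0.67, limma adjusted p = 0.509), and without KO replicate 1 it was -0.05. TGFB2 exons share 1371 bases with TGFB2-OT1 on the same strand, which stood at 0 FPKM in every library. How reads in shared bases were counted is not stated. TGFB3, on chromosome 14 from 75958099 to 75982991 (minus strand), was the least abundant of the 10 genes. TGFB3 held 36 and 41 reads in KO libraries, against 67 and 83 reads in WT libraries, or 0.418 and 0.509 FPKM in KO and 0.747 and 1.03 FPKM in WT. Both KO libraries were lower, but TGFB3 did not pass the filter, and with no filter its log2 change of -0.36 (SE 0.16) was not called (limma adjusted p = 0.293). A level of 3 reads corresponds to 0.0373 FPKM or less for TGFB3, a floor that covers counting error only.

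Of the receptors, TGFBR2 was higher in KO, TGFBR3 was lower, and TGFBR1 was not called. TGFBR2, the type II receptor kinase, on chromosome 3 from 30606502 to 30694142 (plus strand), had 91.1 and 82.3 FPKM in KO libraries, against 54.2 and 54.97 FPKM in WT libraries. Both KO libraries exceeded both WT libraries, which were nearly equal to each other. The mean was 86.7 ± 6.26 FPKM in KO and 54.6 ± 0.506 FPKM in WT (SD, n = 2 per group), 1.59-fold higher, and the log2 change was 0.66 with an SE of 0.14 (limma adjusted p = 0.0287). The call was lost without KO replicate 1 (limma adjusted p = 0.0681), without WT replicate 1 (0.203), without WT replicate 2 (0.174), with quantile normalization (0.0603) and with no filter on low values (0.0733). Its log2 change was 0.55 to 0.73 over all alternatives.

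TGFBR1, the type I receptor kinase on chromosome 9 from 99104038 to 99154192 (plus strand), measured 12.6 and 8.50 FPKM in KO libraries, against 12.4 and 10.7 FPKM in WT libraries. The 2 groups overlapped, with the highest and the lowest value both in KO. Its log2 change was -0.14 (95% interval -0.66 to 0.38, limma adjusted p = 0.665), an interval that holds both a fall and a rise, and it was 0.12 without KO replicate 2. TGFBR3, betaglycan, on chromosome 1 from 91680343 to 91906335 (minus strand), measured 5.12 and 3.59 FPKM in KO libraries, against 9.06 and 8.33 FPKM in WT libraries. Both KO libraries lay below both WT libraries. The mean was 4.36 ± 1.08 FPKM in KO and 8.69 ± 0.516 FPKM in WT (SD, n = 2 per group), 1.995-fold lower, and the log2 change was -0.87 with an SE of 0.18 (limma adjusted p = 0.0246). It was no longer called without WT replicate 1 (limma adjusted p = 0.132), without WT replicate 2 (0.0907) or with no filter on low values (0.0976).

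SMAD3 showed the largest change of the 9 tested genes and was lower in KO. SMAD3, a receptor-activated transcription factor that binds DNA directly, sits on the plus strand of chromosome 15 between 67063763 and 67195195. It had 36.5 and 33.8 FPKM in KO libraries, against 77.8 and 69.4 FPKM in WT libraries, from 5829 and 5045 reads in KO and 12947 and 10360 reads in WT. Both KO libraries lay far below both WT libraries. Its mean was 35.2 ± 1.93 FPKM in KO and 73.6 ± 5.99 FPKM in WT (SD, n = 2 per group), 2.09-fold lower, and the log2 change was -1.04 with an SE of 0.15 (limma adjusted p = 0.00951). The call was lost without WT replicate 1 (limma adjusted p = 0.077) and, narrowly, with no filter on low values (0.052). An antisense gene that shares 182 exon bases with SMAD3, AC087482.1, stayed at or below 0.372 FPKM in every library.

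SMAD2, the other receptor-activated SMAD of this branch, and SMAD4, the partner shared with the BMP branch, lie on chromosome 18, from 47808957 to 47931146 (minus strand) and from 51028394 to 51085045 (plus strand). SMAD2 stood at 3.55 and 2.87 FPKM in KO libraries, against 2.70 and 2.45 FPKM in WT libraries. Its KO values were both above its WT values, but the log2 change of 0.23 did not pass (95% interval -0.15 to 0.61, limma adjusted p = 0.316). SMAD4 had 4.16 and 3.54 FPKM in KO libraries, against 3.03 and 2.58 FPKM in WT libraries. Here too the KO values were the higher ones, and the log2 change of 0.35 did not pass (95% interval -0.02 to 0.73, limma adjusted p = 0.147). SMAD4 exons share 967 bases with AC091551.1 on the same strand, which stood at 0 FPKM in every library.

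SMAD7, the inhibitory SMAD, also lies on chromosome 18, from 48919853 to 48952052 (minus strand). Its level was 6.01 and 7.98 FPKM in KO libraries, against 9.72 and 11.1 FPKM in WT libraries. Both KO libraries were below both WT libraries, with a mean of 6.996 ± 1.39 FPKM in KO and 10.4 ± 0.995 FPKM in WT (SD, n = 2 per group). The log2 change of -0.52 did not pass (SE 0.17, 95% interval -0.95 to -0.09, unadjusted p = 0.0254, limma adjusted p = 0.0813), although it did without KO replicate 2 (limma adjusted p = 0.0465).

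**Figure D2:**
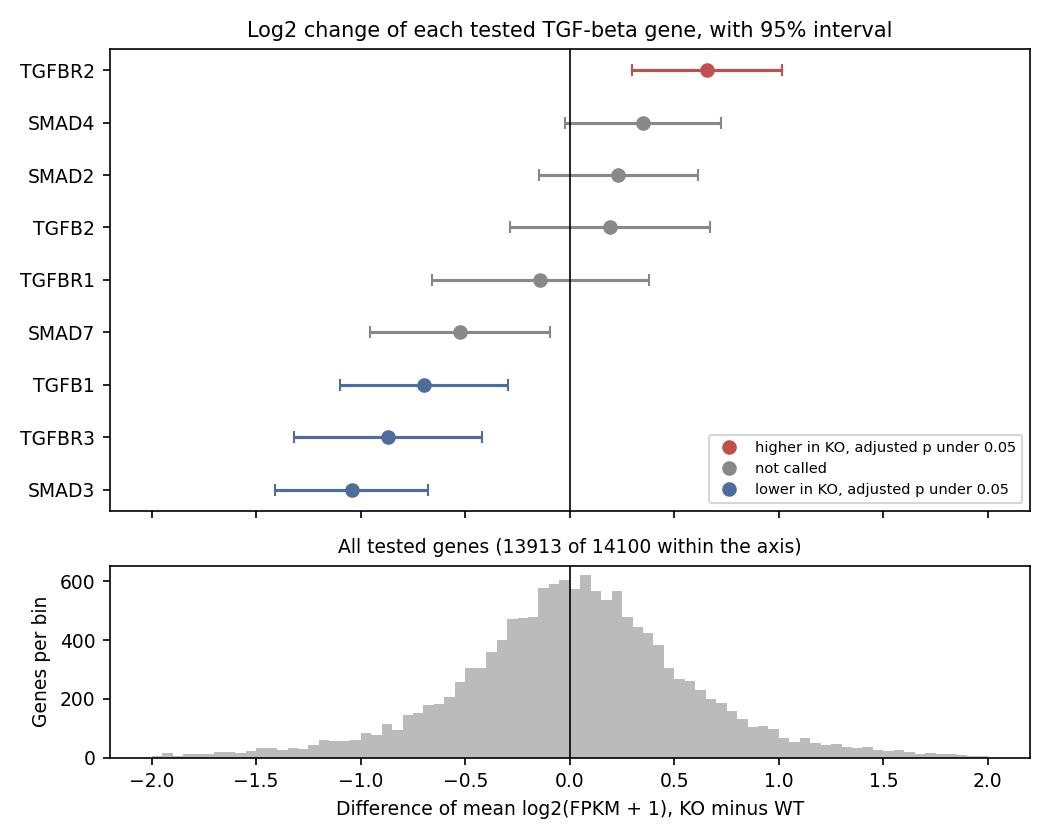
Upper panel, difference of mean log2(FPKM + 1), KO minus WT, of the 9 tested TGF-beta genes, with 95% intervals from limma. Lower panel, the same difference for all tested genes, 13913 of 14100 within the axis. TGFBR2 at 0.66 and SMAD3 at -1.04 are the ends of the range.

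By level, in FPKM and hence per length of gene, TGFB1, TGFBR2 and SMAD3 led in both groups, and TGFB2 and TGFBR1 followed. In KO the first of them was TGFBR2, with 86.7 FPKM on average against 66.02 FPKM for TGFB1 and 35.2 FPKM for SMAD3. In WT the first was TGFB1, with 108 FPKM against 73.6 FPKM for SMAD3 and 54.6 FPKM for TGFBR2. The ranges of these 3 genes did not overlap within either group. Further down, the libraries of TGFBR3 and SMAD4 overlapped in KO, and those of TGFBR1 and SMAD7 overlapped in WT. SMAD4 and SMAD2 overlapped within both groups, at 3.54 to 4.16 FPKM and 2.87 to 3.55 FPKM in KO and at 2.58 to 3.03 FPKM and 2.45 to 2.70 FPKM in WT. The length used for SMAD2, 36366 bases, is the union of all its annotated exons. An alternative added after the data were seen took the longest coding transcript of each gene as its length. All 10 genes then kept their order in both groups, and SMAD3 came to 51.3 FPKM in KO and 107 FPKM in WT. For SMAD2 that transcript has 34526 bases, so this alternative hardly alters its length and cannot tell how far its low rank rests on length. The median coding transcript of SMAD2 has 1378 bases. SMAD2 held 2264 and 1709 reads in KO and 1795 and 1458 reads in WT. SMAD4 held fewer, 957 and 762 reads in KO and 725 and 555 reads in WT.

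Ratios between genes within a library do not depend on scaling between libraries. Their size does depend on the gene lengths used, as described for SMAD2. The TGFBR2 to TGFBR1 ratio was 7.25 and 9.68 in KO libraries, against 4.36 and 5.16 in WT libraries. For TGFBR2 to TGFBR3 it was 17.8 and 22.9 in KO libraries, against 5.99 and 6.60 in WT libraries. The SMAD3 to SMAD2 ratio was 10.3 and 11.8 in KO libraries, against 28.8 and 28.4 in WT libraries, and the SMAD3 to SMAD4 ratio 8.77 and 9.53 in KO, against 25.7 and 26.9 in WT. TGFB1 to TGFB2 stood at 3.09 and 4.20 in KO libraries, against 7.31 and 6.25 in WT libraries. The groups did not overlap for any of these 5 ratios, as was so for 65.7% of all tested single genes. With 2 libraries on each side the smallest p of a two-sided exact permutation test is 0.333, and the ratios share genes. Each ratio also holds at least 1 gene called above, so the separation repeats those calls in part.

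**Figure D3:**
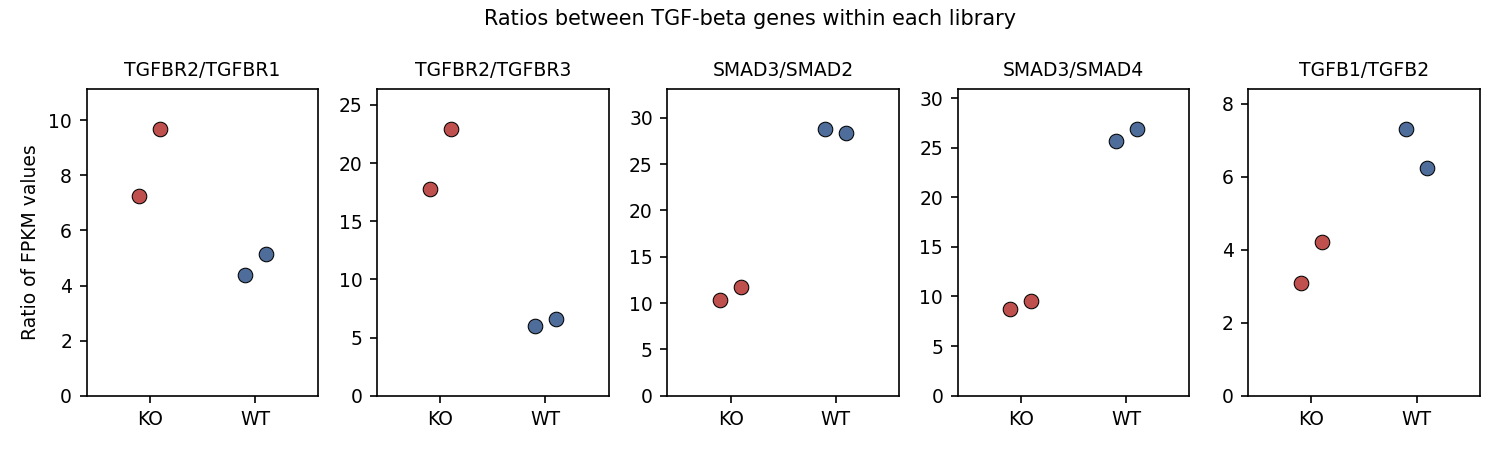
Ratios of FPKM values between TGF-beta genes in each library (points, 2 per group, vertical axes from 0). Receptor ratios lie higher and the SMAD3 and TGFB1 ratios lower in both KO libraries.

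Genes of the list for ligand latency and activation, which holds the whole LTBP family, were called in both directions. Of its 16 genes 12 were tested, with 2 called higher and 3 called lower in KO, 41.7% of those tested against 23.3% of all tested genes, and a median log2 change of -0.25, against 0.03 over all tested genes. LTBP4, a latent TGF-beta binding protein, had 26.3 and 31.5 FPKM in KO libraries, against 12.1 and 10.99 FPKM in WT libraries, 2.50-fold higher (limma adjusted p = 0.0067). LTBP2, a matrix protein of the same family that does not bind latent TGF-beta, had 6.996 and 7.04 FPKM in KO libraries, against 18.8 and 17.1 FPKM in WT libraries, 2.56-fold lower (limma adjusted p = 0.00509). The integrin subunits ITGB8 and ITGB6, which pair with ITGAV to activate latent ligand, went opposite ways at low levels. ITGB8 had 0.226 and 0.153 FPKM in KO libraries, against 1.77 and 1.36 FPKM in WT libraries, 8.25-fold lower (limma adjusted p = 0.0142). ITGB6 had 1.64 and 1.45 FPKM in KO libraries, against 0.678 and 0.377 FPKM in WT libraries, 2.93-fold higher (limma adjusted p = 0.0402). The remaining called gene, FURIN, a protease that cleaves the TGF-beta precursor, was chosen after its values were seen and had 28.99 and 32.7 FPKM in KO libraries, against 44.0 and 48.5 FPKM in WT libraries (lower, limma adjusted p = 0.0432). Leaving out any 1 library ended the call of ITGB6 (limma adjusted p = 0.0734 to 0.173), and leaving out WT replicate 1 ended that of ITGB8 (0.0521). ITGB8 passed the filter on low values only through WT and ITGB6 only through KO. With no filter neither was called (limma adjusted p = 0.0648 and 0.128), and the calls of LTBP4 (0.0507) and FURIN were lost too. With any 1 library left out, the list had 1 gene higher and 1 to 2 lower.

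Among the other receptors of the superfamily, calls were about as frequent as over all genes, and those made were the pseudoreceptor BAMBI and the coreceptor endoglin. Of 12 genes 9 were tested, and limma called 0 higher (0 at an unadjusted p under 0.05) and 2 lower, with a median log2 change of -0.15. That is 22.2% of those tested, near the 23.3% of all tested genes. BAMBI, which binds receptors without a kinase domain of its own, had 11.97 and 11.8 FPKM in KO libraries, against 38.5 and 30.6 FPKM in WT libraries, 2.91-fold lower (limma adjusted p = 0.00546). ENG, endoglin, had 0.450 and 0.651 FPKM in KO libraries, against 1.67 and 1.74 FPKM in WT libraries, 3.09-fold lower (limma adjusted p = 0.0256). The call of ENG was lost without KO replicate 1, WT replicate 1 or WT replicate 2 (limma adjusted p = 0.0702 to 0.0997). ENG passed the filter on low values only through WT, and with no filter it was not called (limma adjusted p = 0.0987).

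Other ligands and antagonists included large changes in both directions. Of 19 genes 11 were tested, with 2 higher and 2 lower in KO, 36.4% of those tested against 23.3% of all tested genes, and a median log2 change of 0.01. GDF15, a stress-induced ligand of the family, had 24.7 and 32.99 FPKM in KO libraries, against 263 and 208 FPKM in WT libraries, 8.16-fold lower (limma adjusted p = 0.00312). FST, the activin antagonist follistatin, had 4.87 and 4.13 FPKM in KO libraries, against 0.554 and 0.925 FPKM in WT libraries, 6.09-fold higher (limma adjusted p = 0.00521). BMP2, a ligand of the BMP branch, had 1.90 and 1.97 FPKM in KO libraries, against 5.99 and 5.27 FPKM in WT libraries, 2.91-fold lower (limma adjusted p = 0.00625). INHBB, an activin subunit, had 19.2 and 22.3 FPKM in KO libraries, against 9.51 and 11.98 FPKM in WT libraries, 1.93-fold higher (limma adjusted p = 0.0189), and its call was lost without WT replicate 1 (0.137) or WT replicate 2 (0.0531). FST passed the filter on low values only through KO, and with no filter FST, BMP2 and INHBB were not called (limma adjusted p = 0.052, 0.052 and 0.0762).

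The 4 other SMADs held no call. Limma called 0 of the 3 tested in either direction, with 0 higher and 1 lower at an unadjusted p under 0.05. Over all 14100 tested genes 23.3% were called, and 5478 had an unadjusted limma p under 0.05. A list of 3 tested genes is too short to set against these shares. SMAD6, the inhibitor of the BMP branch, averaged 16.2 ± 2.19 FPKM in KO and 14.7 ± 1.79 FPKM in WT (SD, n = 2 per group, limma adjusted p = 0.607). SMAD5 and SMAD1, which carry BMP signals, also did not pass. SMAD5 averaged 8.80 ± 1.99 FPKM in KO and 7.32 ± 1.11 FPKM in WT (SD, n = 2 per group, limma adjusted p = 0.44). SMAD1 averaged 2.08 ± 0.0703 FPKM in KO and 3.22 ± 0.153 FPKM in WT (SD, n = 2 per group, limma adjusted p = 0.0645).

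Of 21 regulators of SMAD activity 20 were tested, with 1 higher and 3 lower in KO and a median log2 change of -0.19. The called share of 20% was not above the 23.3% of all tested genes. SMURF2, a ubiquitin ligase for receptors and SMADs, had 5.37 and 3.90 FPKM in KO libraries, against 10.7 and 7.95 FPKM in WT libraries, 2.01-fold lower (limma adjusted p = 0.0341). PMEPA1, a TGF-beta-induced inhibitor of SMAD2 and SMAD3 activation, had 67.3 and 64.8 FPKM in KO libraries, against 118 and 102 FPKM in WT libraries, 1.66-fold lower (limma adjusted p = 0.0267). CREBBP, a coactivator, was 1.49-fold lower (limma adjusted p = 0.0401) and FKBP1A, which binds TGFBR1 and keeps it inactive, 1.49-fold higher (0.0418). None of these 4 calls held without WT replicate 1, and PMEPA1, CREBBP and FKBP1A lost theirs without any 1 library. SMURF2 also lost its call without KO replicate 2 (log2 change -0.68) or WT replicate 2 (-1.06). FKBP1A also lost its call when values were scaled by total recovered reads (0.056) or by quantiles (0.0755). With no filter on low values, none of these 4 was called (limma adjusted p = 0.0792 to 0.124).

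Genes known as TGF-beta targets changed in both directions. Of 28 genes 20 were tested, with 7 higher and 8 lower in KO, 75% of those tested against 23.3% of all tested genes, a median log2 change of -0.18, and 8 listed below 1 FPKM in every library. CTGF, a matricellular protein now named CCN2, had 15.6 and 12.8 FPKM in KO libraries, against 44.5 and 47.2 FPKM in WT libraries, 3.23-fold lower (limma adjusted p = 0.00426). FN1, fibronectin, had 126 and 111 FPKM in KO libraries, against 34.7 and 28.9 FPKM in WT libraries, 3.74-fold higher (limma adjusted p = 0.00402). COL1A1, a chain of type I collagen, had 3.04 and 3.16 FPKM in KO libraries, against 0.234 and 0.280 FPKM in WT libraries, 12.1-fold higher at a low level (limma adjusted p = 0.0041). COL1A1 passed the filter on low values only through KO, and with no filter its limma adjusted p was 0.0491. Without WT replicate 1 the list had 4 higher and 5 lower, the same numbers as without WT replicate 2. SKIL, PMEPA1 and LTBP2 also stand in another of these lists. Over the 97 distinct genes of all 6 lists, 72 were tested, 12 higher and 16 lower, 38.9% against 23.3% of all tested genes. These shares describe lists chosen with results known, and genes that passed the filter through 1 group only had to differ.

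**Figure D4:**
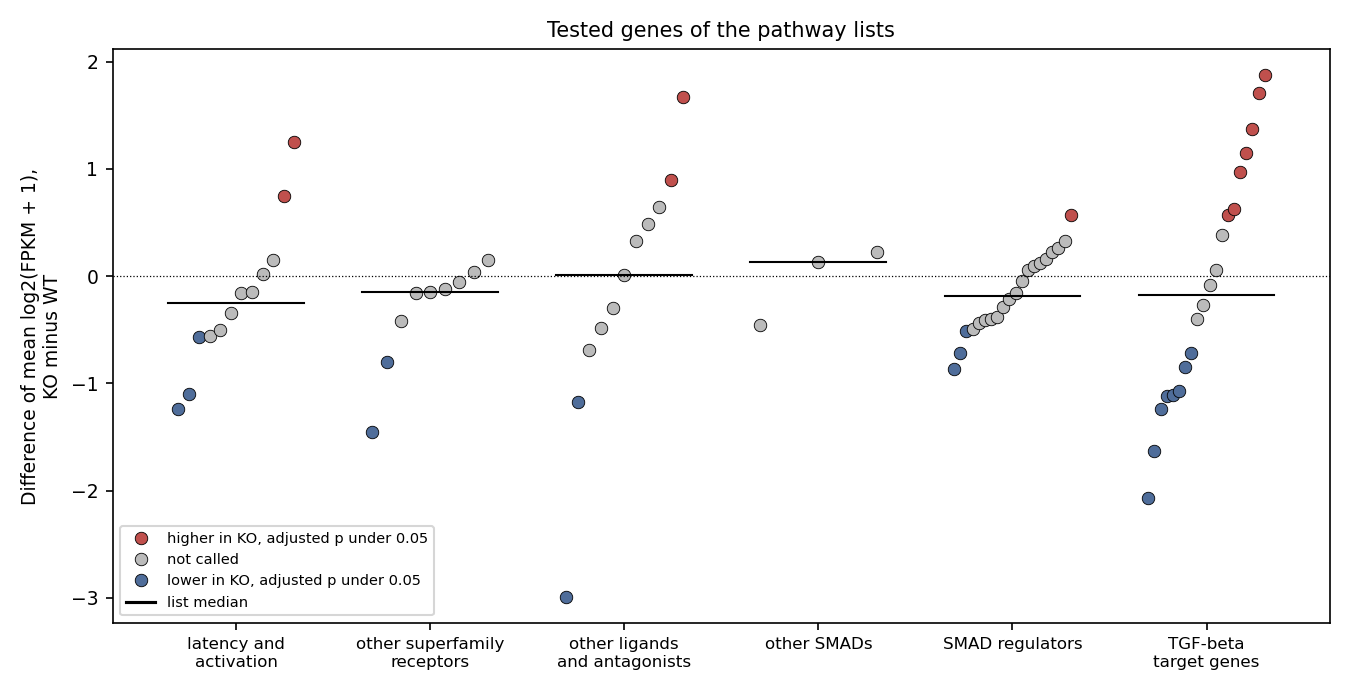
Difference of mean log2(FPKM + 1), KO minus WT, of each tested gene (point) in the 6 pathway lists, sorted within a list, with the list median as a line. The target gene list has called genes on both sides, with CTGF at -1.63 and FN1 at 1.87.

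SMAD3 was also set beside all other tested protein-coding genes by its pattern over the 4 libraries, measured as the Euclidean distance between log2(FPKM + 1) values centred on each gene's own mean. The nearest of 11503 genes were CCDC90B, SLC35F3 and NTN4, at distances of 0.0404, 0.0549 and 0.0578, and 23 genes lay within 0.1. Over 4 libraries in 2 groups this likeness is mostly that of a 2.09-fold lower level in KO.

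**Figure D5:**
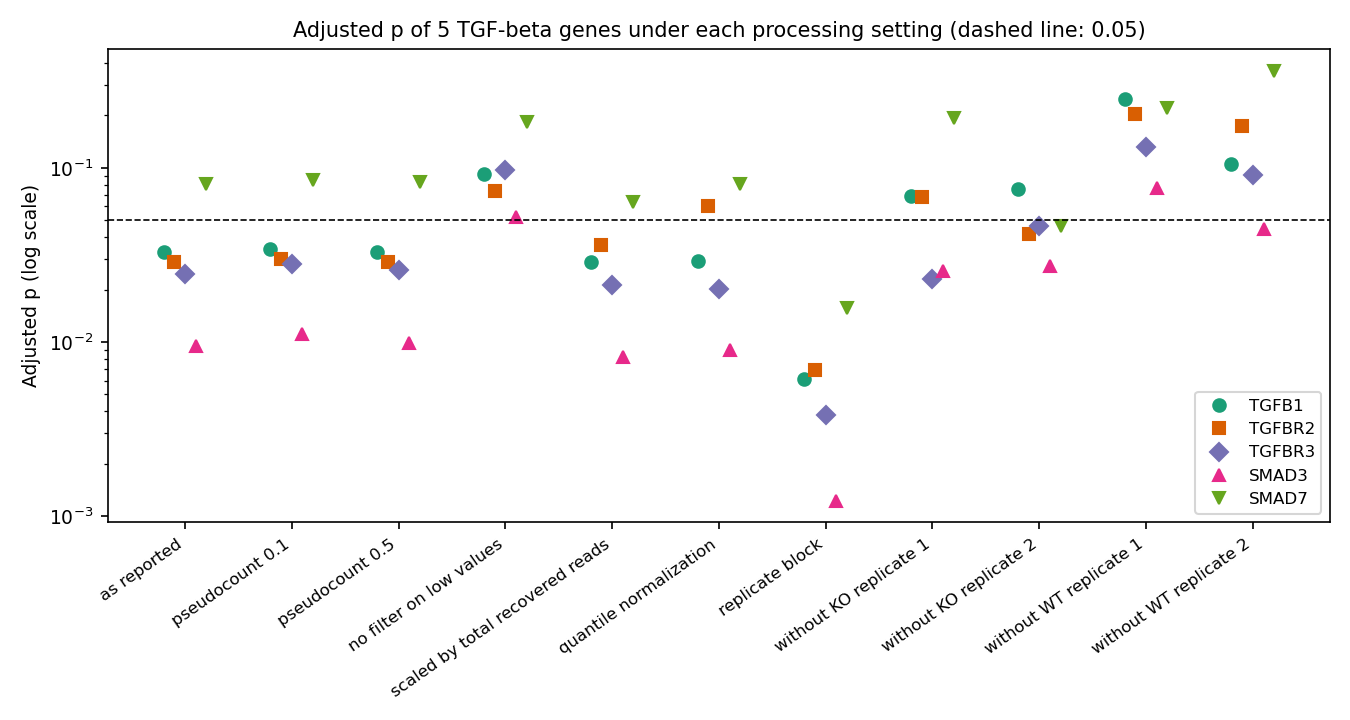
Adjusted p (limma, log axis) of the 4 called TGF-beta genes and SMAD7 as reported and under each alternative setting, with the threshold of 0.05 dashed. SMAD3 lies under the line except with no filter and without WT replicate 1, and SMAD7 lies over it except with a replicate block and without KO replicate 2.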

How the data were processed

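Total RNA of HFL1 cells was sequenced in 4 libraries, and paired-end reads were aligned with HISAT2 2.0.5, per the labels' protocols. The submitters' processing notes name the builds hg38 and mm10. The authors deposited FPKM values, 1 per gene and library. No label or file header names the counting tool, its annotation or a scaling of the libraries. Coordinates of all 58735 genes equalled those of GENCODE release 29 on GRCh38. Each library has 1 step by which FPKM times gene length divides into whole reads, for 100% of values above 0 (tolerance 0.01 reads). The divisor behind that step was 0.990 and 0.986 times the recovered reads in KO and 1.03 and 1.01 times in WT. Median-of-ratios factors of the FPKM values, taken against each gene's geometric mean, were 1.0046 in all 4 libraries. The deposited values were thus already level between libraries by that measure. Mitochondrial reads were 9.34% and 9.71% in KO and 9.66% and 12.7% in WT. Reads and floors describe counting error only.

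The test was limma 3.58.1 in R 4.3.3 on log2(FPKM + 1) (intensity trend, 2 residual degrees of freedom, median prior 3.54, no replicate block), on genes with at least 1 FPKM in at least 2 libraries, and p-values were adjusted over all 14100. The log2 scale with this pseudocount understates low genes' changes. Folds compare mean FPKM. The fit was tested on simulated data. The genes, lists and tests were chosen with earlier results of these data known. Genes named were the 10 TGF-beta genes, CALU, up to 4 tested genes of each list (the called ones with the largest log2 changes, or those of highest mean FPKM if fewer than 2 were called) and the 3 genes nearest SMAD3. A gene that this rule names is not reported here. Alternatives were other pseudocounts, no filter, scaling by total reads, quantile normalization, a replicate block and leaving out each library with the tested genes held fixed.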

Additional observations from a re-analysis of the deposited data

How the results depend on the processing

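All 4 TGF-beta calls held with pseudocounts of 0.1 and 0.5 and with scaling by total reads, and CALU was called under every alternative. Testing all 32306 genes with no filter left 183 higher and 193 lower over all genes, and 3 and 4 of the pathway genes. In limma it left 0 TGF-beta genes higher and 0 lower, with 1 higher and 4 lower at an unadjusted p under 0.05. That unadjusted level was reached by 7412 of the 32306 genes. Quantile normalization left 0 TGF-beta genes higher (1 at an unadjusted p under 0.05 in limma) and 3 lower. Over all 14100 genes it left 1588 higher and 1684 lower, and 5474 had an unadjusted limma p under 0.05. KO and WT libraries share only a number: the labels tie it to no culture or batch, and 2 pairs are too few to show a pairing (correlation of same-numbered deviations 0.411 over tested genes). With a replicate block on that number, 2968 genes were higher and 2577 lower over all genes, 25 pathway genes were lower against 16, and SMAD7 (limma adjusted p = 0.0157) and SMAD1 (0.0376) were called. Leaving out 1 library in turn, with the lone library assumed to vary like the other group, gave 505 to 1321 genes higher and 537 to 1260 lower over all genes, 0 to 1 and 0 to 3 among the TGF-beta genes, and 6 to 9 and 8 to 13 among pathway genes. Without WT replicate 1, the log2 changes of the 4 called TGF-beta genes kept their sign, from -0.96 for SMAD3 to 0.65 for TGFBR2. Over these 4 fits the log2 change of TGFB2 ran between -0.0468 (without KO replicate 1) and 0.431, that of TGFBR1 between -0.398 and 0.117 (without KO replicate 2), and that of SMAD6 between -0.00105 (without KO replicate 2) and 0.26. None of these 3 was called in any of them. The cause of these changes was not tested. Having 2 libraries per group limits the precision of every value, and the lowest read count of a tested TGF-beta gene in a library was 512.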
